A study of Mus musculus with 24 samples.

Results

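The genes described here are 10 genes whose products are built into the acrosome of the mouse spermatid, chosen by name: *Acrv1*, *Acr*, *Acrbp*, *Spaca1*, *Spaca3*, *Spaca4*, *Spaca7*, *Zpbp*, *Zpbp2* and *Spink2*. All 10 were found among the 24456 gene symbols of the count tables, and all 10 passed the filter on low counts that left 17170 genes for testing.

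The acrosome is a secretory vesicle that round spermatids assemble from the Golgi apparatus and spread over the nucleus as a cap, and that sperm empty when they reach the egg. Its genes are a classic programme of male germ cells: some are transcribed already in late meiotic spermatocytes, others wait for the haploid spermatid. In juvenile mice the first wave of spermatogenesis is nearly synchronous, so that the age of a testis sets which germ cells it has reached, and the first round spermatids appear within the span of days sampled here. By role the genes fall into the protease arm of the vesicle (*Acr*, the serine protease acrosin, *Acrbp*, which binds its precursor, and *Spink2*, a Kazal-type inhibitor that restrains it), matrix proteins that bind the egg coat (*Zpbp* and *Zpbp2*), and acrosomal vesicle and membrane proteins (*Acrv1*, known as SP-10, *Spaca1*, a membrane protein needed for a normally shaped acrosome, *Spaca3*, a lysozyme-like protein, *Spaca4*, an anchored membrane protein, and *Spaca7*, a matrix protein).

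RNA of whole testes was sequenced from wild-type (WT) mice and from mice homozygous for an *Atad2* knockout allele (KO), at 20, 22, 24 or 26 days of age. Titles, tissue labels and methods name the testis, while the extraction note also mentions purified spermatogenic fractions, and the 7 Sertoli cell markers, of a somatic cell type, summed to 925 to 2177 CPM across the libraries. Days 20 and 22 have 4 WT and 4 KO libraries each, and days 24 and 26 have 2 and 2, which makes 24 libraries in all. *Atad2* encodes a bromodomain AAA+ ATPase of chromatin that is abundant in spermatids. The KO allele joins the first part of the gene to a lacZ reporter and lost an exon and the neo cassette by crossing to a ubiquitously active CMV-Cre line, so every cell of a KO mouse lacks the protein, and germ cell and somatic effects cannot be told apart. The labels carry no other treatment, and the methods call the libraries of a group biological replicates. Libraries are named by genotype, day and replicate, as in KO_d20_4.

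*Atad2* itself lay at 30.8 to 53.0 CPM (a gene's counts relative to the TMM-scaled total of its library) in the KO libraries and at 76.1 to 171 CPM in the WT libraries, with no overlap. The counts assigned to genes summed to 10709667 in WT_d20_2, the shallowest library, and to 19491935 in WT_d22_4, the deepest. WT_d20_2 also stood apart in having 13.7% of its read pairs aligned to several places, the highest share of the 24. The testis label was checked against marker lists: the 8 round spermatid markers summed to 7.69 to 33.3 CPM in the WT libraries of day 20, where 1 of them (*H1fnt*) was at 0, and to 1014 to 1111 CPM at day 26 in both genotypes. The summed level of 4 epididymis markers was 720 CPM in WT_d24_2, the lower WT library of its day for all 10 genes, and 548 CPM in WT_d26_2, the higher one of its day for all 10, against 1.99 and 5.39 CPM in their partners. It was also 536 CPM in WT_d22_4 and 278 CPM in WT_d20_3, against lows of 2.75 and 2.001 CPM in their groups, and at most 161 CPM in a KO library. Its part in the results was not tested. In RNA of a whole testis, fewer cells of a type and less RNA per cell cannot be told apart, and this holds for every level below.

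Stretches before the RefSeq transcription starts are shown because the 10 genes did not rise together, so that what lies in front of the late and of the early ones can be set side by side. Sequences are from RefSeq on GRCm38.p6, the build called mm10, written 5′ to 3′ on the gene's strand, with capitals marking the letters TGACG (the core of the cAMP response element, which CREM binds in spermatids) or ACACAC, or their reverse complements. RefSeq windows were at hand for 9 of the 10 genes, all but *Acr*, and the motifs were searched in the 250 bases before each start on both strands. All end within 8 bases of the RefSeq start used except that of *Spaca1*, which runs from 76 to 47 bases before it. By the GENCODE gene spans given further on, the stretches of *Spaca1* and *Acrbp* lie wholly inside the gene, all 30 of 30 bases, since GENCODE places an earlier start there, and the other 6 lie outside. The first 5 are the late-rising genes, the other 3 were already present at day 20.
*Acrv1* (chr9:36693070-36693219, plus strand): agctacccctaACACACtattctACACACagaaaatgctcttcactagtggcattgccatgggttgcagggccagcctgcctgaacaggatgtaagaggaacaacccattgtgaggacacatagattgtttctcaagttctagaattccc
*Spaca3* (chr11:80858263-80858360, plus strand): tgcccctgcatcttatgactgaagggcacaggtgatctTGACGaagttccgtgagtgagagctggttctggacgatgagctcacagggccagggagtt
*Spaca7* (chr8:12572856-12573028, plus strand): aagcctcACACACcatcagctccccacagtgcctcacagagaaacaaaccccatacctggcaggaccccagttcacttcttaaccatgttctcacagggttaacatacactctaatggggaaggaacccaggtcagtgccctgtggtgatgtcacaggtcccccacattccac
*Spaca4* (chr7:45725817-45725916, minus strand): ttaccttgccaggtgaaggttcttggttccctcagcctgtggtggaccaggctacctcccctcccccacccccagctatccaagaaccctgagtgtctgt
*Spaca1* (chr4:34050114-34050143, minus strand): cgaatggggTGACGcgcggTGACGcctcaa
*Acrbp* (chr6:125049897-125049926, plus strand): cctcaccttctgTGACGtagcagccgcgcc
*Zpbp2* (chr11:98550947-98551096, plus strand): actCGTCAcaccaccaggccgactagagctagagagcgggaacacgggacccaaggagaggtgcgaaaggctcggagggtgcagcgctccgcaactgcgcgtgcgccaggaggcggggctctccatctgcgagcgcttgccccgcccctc
*Spink2* (chr5:77211472-77211651, minus strand): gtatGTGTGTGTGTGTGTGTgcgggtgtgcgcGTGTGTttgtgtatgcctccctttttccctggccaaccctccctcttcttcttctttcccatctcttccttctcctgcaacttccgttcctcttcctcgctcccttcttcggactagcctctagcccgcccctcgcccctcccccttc

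TGACG was found in 4 of 9 genes (*Acrbp*, *Spaca1*, *Spaca3* and *Zpbp2*), against 19.8% of all 27025 genes in the RefSeq windows. ACACAC was found in 3 of 9 (*Acrv1*, *Spaca7* and *Spink2*), against 16.8%. In *Spaca1* the core stands as a pair within the 30 bases printed. The full element TGACGTCA was in none of the 9 and in 1.8% of genes, GTTGCC, part of the X-box, only in *Acrbp* and in 11.8%, and CNGTTA, the motif of A-MYB, only in *Spink2* and in 22.3%. TGACG is part of TGACGTCA, so those searches overlap. The late and the early genes are not separated by either kind of match, and the letters say nothing of which factor binds.

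In WT testes the genes differed in how far they rose, and they are given in 3 groups, a division made after their values were seen and kept as a description. *Acrv1*, *Spaca1*, *Spaca3*, *Spaca4* and *Spaca7*, called the 5 late genes here, were almost silent at day 20 and rose steeply to day 26. *Acr* and *Acrbp* were present at day 20 and rose by 1.79 and 1.51 on the log2 scale to day 26. *Zpbp*, *Zpbp2* and *Spink2* were also present at day 20, with smaller differences to day 26 of 1.14, 1.08 and 0.42. The plot of all libraries shows the late genes in the upper row.

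**Figure D1:**
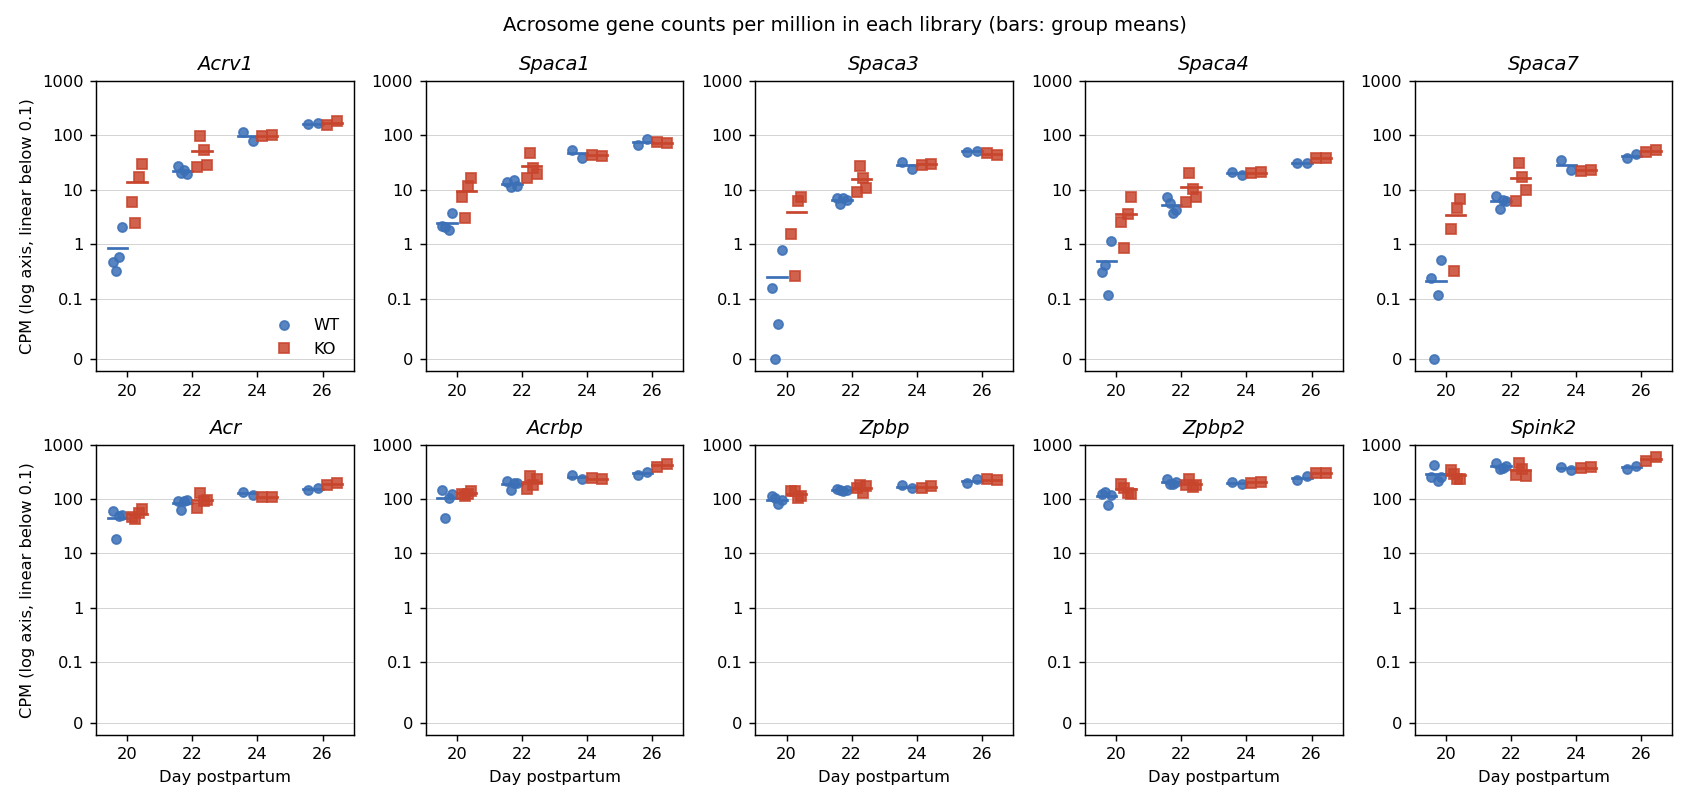
CPM of each of the 10 acrosome genes in each of the 24 libraries (y axis, logarithmic above 0.1 and linear below) by day postpartum (x axis), with WT libraries as blue circles, KO libraries as red squares and short bars for group means. *Acrv1* in WT goes from a mean of 0.863 CPM at day 20 to 164 CPM at day 26, while *Spink2* goes from 286 to 383 CPM, and at day 20 the 4 KO libraries of the late genes spread over a wide range.

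*Acrv1* (3 exon blocks, chr9:36693220-36698843, plus strand) had the highest mean CPM of the late genes in WT at days 22, 24 and 26, though not at day 20. In WT it was at 0.471, 0.316, 0.578 and 2.09 CPM in the 4 libraries of day 20, at 27.0, 20.4, 23.0 and 19.8 at day 22, at 117 and 80.6 at day 24, and at 162 and 167 at day 26. No WT library of one day overlapped those of another day. Its mean at day 20 was 0.525% of the mean at day 26 (0.277% without WT_d20_4), and the fitted difference from day 20 to day 26 was 7.52 ± 0.777 on the log2 scale (SE, adjusted p = 4.12e-07).

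*Spaca3* (chr11:80858365-80867814, plus strand) and *Spaca7* (chr8:12573029-12600744, plus strand) were the lowest of all at day 20. *Spaca3* had 2, 0, 1 and 11 counts in WT_d20_1 to WT_d20_4, and *Spaca7* had 3, 0, 2 and 7. The zeros of both were in WT_d20_2, where a count of 0 allows up to 0.316 CPM (3 counts, counting error only). By day 26 *Spaca3* stood at 50.05 and 51.6 CPM and *Spaca7* at 38.9 and 45.8 CPM in WT. Both had reached about the same fraction of that level at day 22, 13% for *Spaca3* and 14.6% for *Spaca7*, and both stood at 56.3% and 68.2% of it at day 24.

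*Spaca4* (chr7:45725107-45725813, minus strand), a single exon of 707 bases, was at 0.314, 0.421, 0.116 and 1.15 CPM in WT at day 20 and at 30.9 and 31.3 CPM at day 26, the lowest final level of the 10. *Spaca1* (chr4:34024874-34050191, minus strand) was the least silent of the late genes, with 2.12, 2.11, 1.79 and 3.82 CPM at day 20, and ended at 67.0 and 86.5 CPM. Its day 20 level was 3.20% of its day 26 level, against 1.61% for *Spaca4* and about 0.5% for the other 3 late genes. Without WT_d20_4 the shares were 0.911% in *Spaca4*, 0.141% in *Spaca3* and 0.277% in *Spaca7*.

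*Acr* (chr15:89568326-89574585, plus strand) was at 59.7, 18.6, 48.0 and 50.3 CPM in WT at day 20 and at 146 and 160 CPM at day 26. *Acrbp* (chr6:125049689-125063267, plus strand) was at 147, 44.7, 106 and 123 CPM at day 20 and at 283 and 316 CPM at day 26. In both genes the low value of day 20 belongs to WT_d20_2, and without that library the rise from day 20 to day 26 was still 1.501 and 1.22 on the log2 scale, the lowest of the values obtained by leaving out 1 library. *Acrbp* shares 975 exon bases with *Gm44597* on the same strand, in GENCODE M21. Whether the gene model behind the counts held that gene, and so whether pairs were lost, is not known.

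*Zpbp* (chr11:11279626-11462408, minus strand) was at 112, 103, 80.1 and 96.2 CPM in WT at day 20 and at 196 and 234 CPM at day 26. *Zpbp2* (chr11:98551097-98558665, plus strand) went from 123, 137, 79.0 and 121 CPM to 223 and 263 CPM. *Spink2* (chr5:77205107-77211471, minus strand) moved least, from 251, 424, 215 and 254 CPM at day 20 to 364 and 402 CPM at day 26, and its highest value of day 20 came from WT_d20_2, where *Acr* and *Acrbp* were lowest. *Spink2*, the inhibitor of the protease arm, stood at 74.7% of its day 26 mean at day 20 in WT, and the protease *Acr* at 28.8%. Without WT_d20_2 these were 62.6% and 34.4%, and in KO they were 50.7% and 27.9%.

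**Figure D2:**
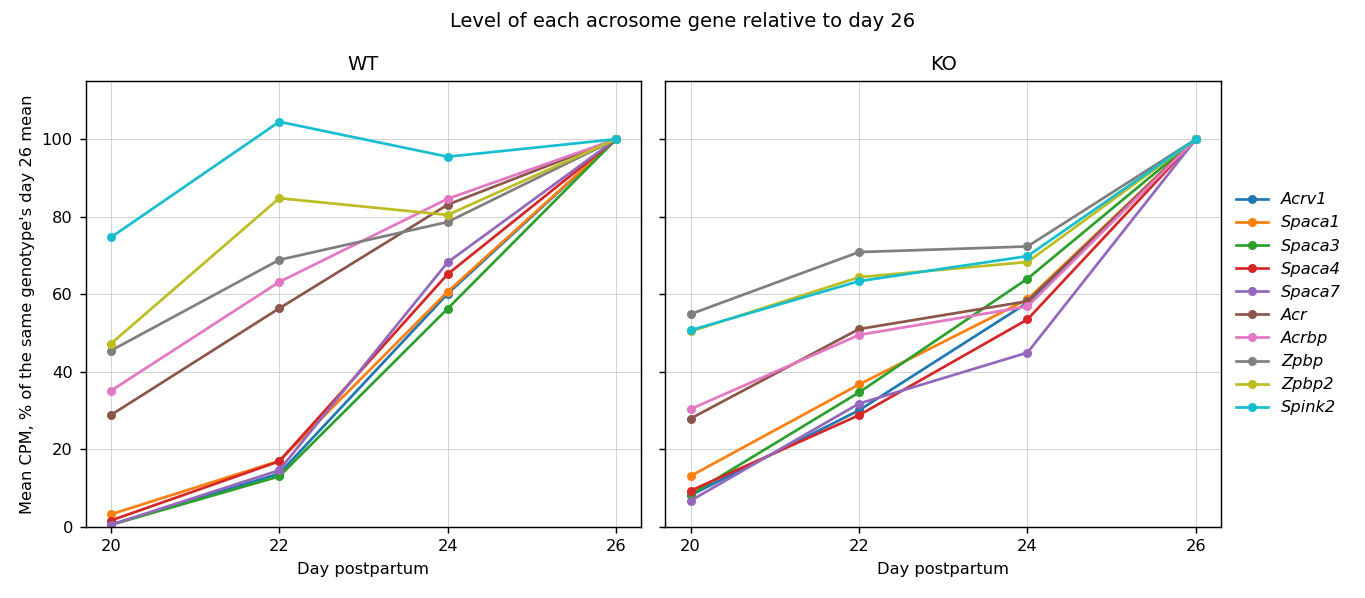
Mean CPM of each gene at each day as a percentage of the mean at day 26 of the same genotype (y axis) by day postpartum (x axis), WT on the left and KO on the right, 1 line per gene. In WT the 5 late genes start between 0.495% and 3.20% and *Spink2* at 74.7%, while in KO the late genes start between 6.72% and 13.1% and *Spink2* at 50.7%. The KO starts move with single libraries: the KO day 20 mean of *Acrv1* was 13.99 CPM, 8.52 without KO_d20_4 and 17.8 without KO_d20_2. That of *Spaca7* was 3.44, 2.28 and 4.47 CPM.

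From day 20 to day 22, 9 of the 10 genes rose in WT by edgeR's quasi-likelihood test at an adjusted p under 0.05, where 12.9% of all genes tested rose. The late genes rose by 2.41 (*Spaca1*) to 4.79 (*Spaca7*) on the log2 scale, and *Acr*, *Acrbp*, *Zpbp* and *Zpbp2* by 0.60 to 0.96. Leaving out 1 library gave 4.24 to 6.48 in *Spaca3*, 4.44 to 5.59 in *Acrv1*, 4.48 to 5.65 in *Spaca7* and 3.01 to 4.37 in *Spaca4*. *Spink2* differed by 0.49 ± 0.192 (SE, adjusted p = 0.0774) and was not called. That call turns on 1 library: without WT_d20_2 it was 0.73 (adjusted p = 0.00328) and all 10 were called, as they were with a replicate block (*Spink2* 0.52, adjusted p = 0.0351).

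From day 22 to day 24, 5 of the 10 rose in WT, against 5.88% of all genes, and they were the 5 late genes, by 1.83 (*Spaca1*, adjusted p = 0.0139) to 2.22 (*Spaca7*, adjusted p = 0.0309). *Zpbp2* and *Spink2* had fitted differences of -0.07 and -0.13 and were not called. The count was less firm than at the earlier step: it was 2 with DESeq2 (*Spaca1* and *Spaca4*), 1 with a replicate block (*Spaca1*) and 3 without a filter on low counts. It was 0 without WT_d22_2 or WT_d24_1, and it was 1 without WT_d20_2, WT_d22_3, WT_d22_4, WT_d24_2, KO_d26_1 or KO_d26_2. It remained 5 without KO_d20_1, KO_d20_2, KO_d20_4, KO_d22_1, KO_d22_2, KO_d22_4 or WT_d20_4, and was 3 (*Spaca1*, *Spaca4* and *Spaca7*) without any other library. From day 24 to day 26 none was called and none had an unadjusted p under 0.05, against 0.274% of all genes called, and DESeq2 also called none. All 10 fitted differences of that step were above 0, from 0.07 in *Spink2* to 0.83 in *Spaca3*, and 2 libraries per group leave intervals as wide as -0.76 to 2.23 (*Acrv1*). Across the whole span, 9 of 10 were higher at day 26 than at day 20 in WT, against 24.4% of all genes, with *Spink2* at 0.42 (adjusted p = 0.146). Without WT_d20_2 *Spink2* was called there too, at 0.63 (adjusted p = 0.00857).

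Levels of different genes are compared here per length (RPKM, CPM per kilobase of the exons of the RefSeq-linked transcripts). For *Acrv1* those exons hold 1101 bases, against 3647 in all its GENCODE exons. Its rank and its share of the sum below depend on this choice, and the gene model behind the counts is not known. At day 20 in WT, *Spink2* led with a mean of 363 RPKM, then *Zpbp2* with 70.0, *Acrbp* with 43.8, *Acr* with 29.4 and *Zpbp* with 23.0. These 4 overlapped with their neighbours in rank over the 4 libraries, while *Spink2* was clear of *Zpbp2* and *Zpbp* was clear of the late genes, which ranged from 0.265 (*Spaca3*) to 1.67 RPKM (*Spaca1*). By day 26 *Acrv1* had come from the seventh place to the second with 149 RPKM, level with *Zpbp2* at 148, with overlapping libraries. *Spaca7*, *Spaca3*, *Spaca1* and *Zpbp* then lay between 50.7 and 55.5 RPKM and could not be ordered beyond their spread.

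The mix of transcripts therefore shifted with age while the sum of the 10 grew from 533 ± 108 RPKM (SD, n = 4) to 1266 ± 95.7 RPKM (SD, n = 2) in WT. *Spink2* made up 67.1% of that sum at day 20 (63.1% without WT_d20_2) and 38.4% at day 26. *Acrv1* went from 0.155% (0.0833% without WT_d20_4) to 11.8%, and the protease *Acr* from 5.90% to 8.05%. *Acrbp* had mean shares of 8.76% to 10.3% on the 4 days in WT. Without WT_d20_2 the day 20 shares were 7.26% for *Acr* and 10.8% for *Acrbp*. In KO the sum was 588 ± 64.2 RPKM (SD, n = 4) at day 20 and 1596 ± 120 RPKM (SD, n = 2) at day 26.

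**Figure D3:**
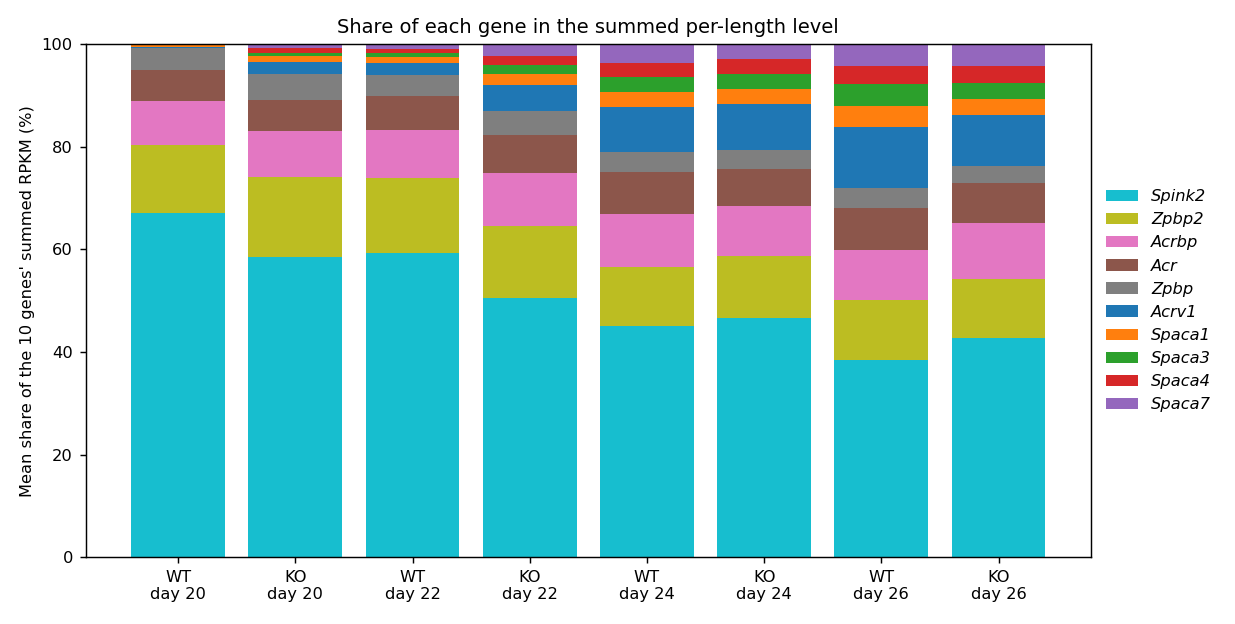
Mean share of each gene in the summed RPKM of the 10 acrosome genes (y axis, %) in each of the 8 groups (x axis), as stacked bars. The *Spink2* share is 67.1% in WT and 58.6% in KO at day 20 and 38.4% and 42.7% at day 26, and the late genes fill the top of the bars as the days pass.

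The comparison of KO with WT asks whether loss of ATAD2 changes these levels on a given day. At day 20 the 5 late genes were higher in KO than in WT, and the other 5 were not called. These 5 of 10 compare with 2.98% of all genes tested that were called higher and 3.34% called in either direction. *Acrv1* was at 6.09, 2.49, 17.0 and 30.4 CPM in the KO libraries, each above the highest WT library (2.09 CPM), as 3.03% of all genes tested were without overlap, and the fitted difference was 3.97 ± 0.725 on the log2 scale (SE, adjusted p = 0.00733), or 15.7-fold with a 95% interval from 5.47-fold to 44.9-fold.

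The other late genes moved alike but with overlapping libraries. *Spaca3* was at 1.52, 0.262, 6.27 and 7.31 CPM in KO, with KO_d20_2 below the highest WT library, WT_d20_4, at 0.792 CPM (log2 difference 3.88 ± 0.866, adjusted p = 0.0166). *Spaca7* was at 1.89, 0.327, 4.62 and 6.91 CPM, again with KO_d20_2 below WT_d20_4 (3.94 ± 0.880, adjusted p = 0.0166). In *Spaca1*, *Spaca3*, *Spaca4* and *Spaca7* the overlap came from 1 low KO library, KO_d20_2, and 1 high WT library, WT_d20_4.

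*Spaca4* was at 2.54, 0.8501, 3.57 and 7.52 CPM in KO (2.88 ± 0.656, adjusted p = 0.0183). *Spaca1* was at 7.25, 3.07, 11.6 and 16.8 CPM (1.98 ± 0.430, adjusted p = 0.0146), the smallest fold of the 5 and the gene with the most WT signal at that day. The folds of *Spaca3* and *Spaca7* rest on WT counts of at most 11, so their size is loosely set. Without WT_d20_4 the log2 differences were 4.90 in *Acrv1*, 5.68 in *Spaca3*, 3.83 in *Spaca4* and 4.79 in *Spaca7*, and without KO_d20_4 they were 3.26 in *Acrv1*, 2.24 in *Spaca4* and 3.35 in *Spaca7*.

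The 4 KO libraries of day 20 differed among themselves far more than the fold of the early genes. *Acrv1* was 12.2 times as high in KO_d20_4 as in KO_d20_2, with a coefficient of variation of 89.8% (n = 4) in KO and 95.4% (n = 4) in WT at that day, against 14.4% in the 4 WT libraries of day 22. KO_d20_4 held the highest value of its group for 7 of the 10 genes and KO_d20_2 the lowest for 7. The call of 5 genes rested on single libraries: 1 gene (*Acrv1*) remained called without WT_d20_1, WT_d20_2, WT_d20_3 or KO_d20_4, and 3 (*Acrv1*, *Spaca1* and *Spaca4*) without KO_d20_3. With day 20 fitted alone, 9 of the 10 genes could be tested and none was called, at about the same fold changes (*Acrv1* 3.98, adjusted p = 0.158).

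The genes already present at day 20 showed small differences. *Zpbp* was at 143, 141, 106 and 113 CPM in KO against 80.1 to 112 CPM in WT (0.36 ± 0.124, adjusted p = 0.148), and *Zpbp2* at 186, 160, 130 and 125 CPM against 79.0 to 137 CPM (0.39 ± 0.153, adjusted p = 0.241). In this pair the KO libraries with the most signal were KO_d20_1 and KO_d20_2, the reverse of the late genes. *Acr* and *Acrbp* differed by 0.25 ± 0.247 and 0.27 ± 0.231, and *Spink2* by -0.07 ± 0.191, with a 95% interval of -0.46 to 0.33.

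**Figure D4:**
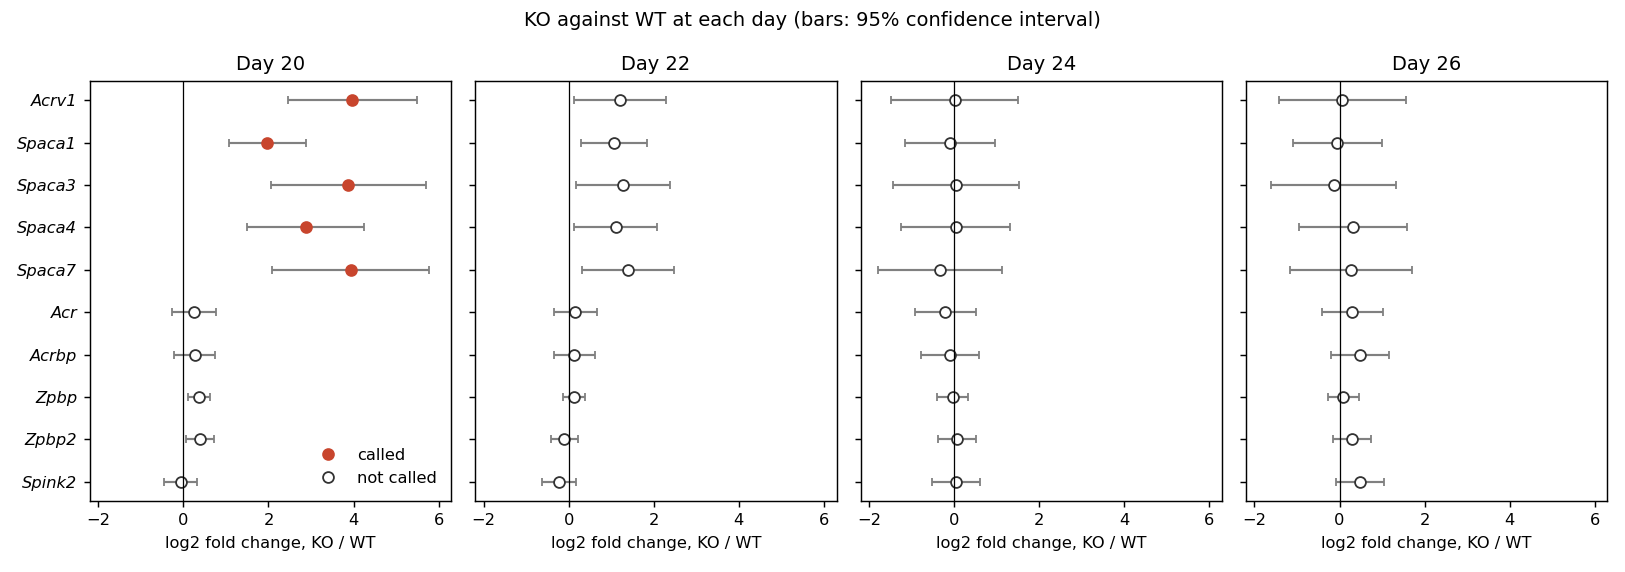
Fitted log2 fold change of KO over WT (x axis) for each of the 10 genes (y axis) at days 20, 22, 24 and 26, with 95% confidence intervals as bars, filled red where the adjusted p was under 0.05 and open where it was not. The 5 late genes lie between 1.98 and 3.97 at day 20 and between 1.06 and 1.39 at day 22, and at days 24 and 26 all 10 intervals include 0.

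At day 22 none of the 10 was called, against 2.51% of all genes, although all 5 late genes had an unadjusted p under 0.05, and DESeq2 also called none. Without KO_d20_2, *Spaca1* was called. Their differences had the same sign as at day 20 and ran from 1.06 ± 0.368 in *Spaca1* (adjusted p = 0.145) to 1.39 ± 0.520 in *Spaca7* (adjusted p = 0.183). *Acrv1* was at 26.6, 98.2, 53.4 and 29.0 CPM in KO and at 19.8 to 27.0 CPM in WT (1.202 ± 0.520, adjusted p = 0.271). KO_d22_2 held the highest value of its group for all 10 genes, and without it the *Acrv1* difference was 0.69, the lowest obtained by leaving out 1 library. *Spaca1* and *Spaca3* were higher in every KO library than in every WT library, as were 3.64% of all genes. *Zpbp2* and *Spink2* were lower in KO on average, by fitted values of -0.10 and -0.23.

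At day 24 no gene was called, against 0.0874% of all genes, none had an unadjusted p under 0.05 and DESeq2 called none. The libraries of *Acrv1* overlapped: it was at 99.3 and 99.97 CPM in KO and 117 and 80.6 CPM in WT, a fitted difference of 0.01 with an interval from -1.48 to 1.501. The other fitted values lay between -0.33 (*Spaca7*) and 0.06 (*Zpbp2*). Both KO libraries were below both WT libraries for *Acr*, as for 21.4% of all genes. With 2 libraries a side, a change of about 2-fold in a late gene would lie inside these intervals.

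At day 26 again no gene was called, against 0.0466% of all genes, none had an unadjusted p under 0.05 and DESeq2 called none. *Acrbp* and *Spink2* had the largest fitted differences. *Acrbp* was at 392 and 443 CPM in KO against 283 and 316 CPM in WT (0.48 ± 0.325, adjusted p = 0.594), and *Spink2* at 494 and 582 CPM against 364 and 402 CPM (0.49 ± 0.271, adjusted p = 0.501). Both were called when day 26 was fitted alone, with adjusted p-values of 0.0119 and 0.0133, a fit with 4 libraries. The 0.0466% above belongs to the fit of all 24 libraries, and the share of all genes called in the fit of day 26 alone is not given. Of the 10 genes, 6 (*Acr*, *Acrbp*, *Spaca4*, *Spaca7*, *Zpbp2* and *Spink2*) had both KO libraries above both WT libraries, where 27.8% of all genes did, and *Spaca3* had both below, where 31.1% did.

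Over the unweighted mean of the 4 days, 4 of the 10 were called higher in KO (*Acrv1* 1.31, *Spaca3* 1.27, *Spaca4* 1.08 and *Spaca7* 1.32 on the log2 scale, adjusted p = 0.0304 to 0.0439), against 3.52% of all genes higher and 7.08% in either direction. *Spaca1* had 0.72 ± 0.227 (adjusted p = 0.0600) and was called by DESeq2 (adjusted p = 0.0184), with a replicate block (adjusted p = 0.0342) and without WT_d20_4, KO_d20_2 or KO_d22_1, which makes 5 of 10 in each, and the other 5 lay between 0.06 and 0.20. The 4 calls became 1 (*Acrv1*) without a filter on low counts, 1 without WT_d20_2, KO_d20_3, WT_d22_3, WT_d22_4 or WT_d24_1, and 2 without WT_d20_1, KO_d20_4 or WT_d22_2. None was called without WT_d20_3, WT_d24_2, KO_d24_1, KO_d24_2 or any of the 4 libraries of day 26.

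Whether the difference itself changed with age was tested too. In the joint test of the 4 days no acrosome gene was called (adjusted p = 0.327 for *Acrv1* to 0.984 for *Acr*), where 0.00582% of all genes were, and DESeq2 called 1 (*Acrv1*). Without KO_d20_2, edgeR called *Acrv1* and *Spaca3*. For day 26 against day 20, the late genes had differences of -2.03 (*Spaca1*) to -4.02 (*Spaca3*), each with an unadjusted p under 0.05 and adjusted p-values of 0.175 to 0.277. No gene of the 17170 was called in that contrast by edgeR, while DESeq2 called *Acrv1* (adjusted p = 0.0323). With KO_d20_2 left out, edgeR called 4 (*Acrv1*, *Spaca1*, *Spaca3* and *Spaca7*). With a replicate block it called *Acrv1* (adjusted p = 0.0189) and *Spaca3* (adjusted p = 0.02). Leaving out 1 library gave differences of -5.79 to -3.50 in *Spaca3*, -4.80 to -3.19 in *Acrv1* and -3.48 to -1.91 in *Spaca4*.

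The late genes of day 20 KO testes were also set against WT testes that were 2 days older. On the log2 scale, the KO mean of day 20 stood at 82.2% (*Spaca1*) to 85.4% (*Acrv1*) of the way from WT day 20 to WT day 22. For the other genes that position was 60.2% in *Zpbp*, 46.1% in *Zpbp2*, 32.2% in *Acrbp*, 26.4% in *Acr* and -13.9% in *Spink2*, which did not move that way. Without WT_d20_2 the positions of the late genes were 81.0% to 84.5%, while those of *Acr*, *Acrbp* and *Spink2* became 0.228%, 3.46% and 25.2%. By group means no late gene had reached the WT level of day 22: the KO mean of day 20 was 0.557 (*Spaca7*) to 0.743 (*Spaca1*) of the WT mean of day 22. Without KO_d20_4 these ratios were 0.369 (*Spaca7*) to 0.561 (*Spaca1*), with *Acrv1* at 0.378, and the positions 65.2% to 72.5%. Without KO_d20_2 the ratios were 0.725 (*Spaca7*) to 0.912 (*Spaca1*) and the positions 90.4% to 94.5%. KO_d20_2, at 2.49 CPM of *Acrv1*, stood far below the 19.8 to 27.0 CPM of the WT libraries of day 22, while KO_d20_4, at 30.4 CPM, stood above them. KO_d20_4 was also above the highest of them in *Spaca1* (16.8 against 15.1 CPM), *Spaca3* (7.31 against 7.22) and *Spaca4* (7.52 against 7.32). In *Spaca7* it was not (6.91 against 7.61). These positions share their WT day 20 libraries with the test above.

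Markers of round spermatids that are not among the 10 genes moved with the late genes. Of the 8 markers, 7 were called higher in KO at day 20, where 2.98% of all genes were, with a median log2 difference of 3.92. Their summed level was 36.4 to 142 CPM in the KO libraries against 7.69 to 33.3 CPM in WT. At day 22 it was 155 to 477 CPM in KO and 95.8 to 156 CPM in WT, with 1 marker called higher, where 1.26% of all genes were. At day 26 it was 1109 to 1111 CPM against 1014 to 1059 CPM, with none called and none at an unadjusted p under 0.05. KO_d20_2, the lowest KO library for the late genes at day 20, also had the lowest sum, and KO_d22_2 had the highest sum of its day.

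Markers of other cells of the testis were set beside the late genes at day 20, when 2.98% of all genes were called higher in KO. The 7 elongating spermatid markers summed to 0.842 to 4.75 CPM in WT and 1.70 to 51.5 CPM in KO, with 1 called higher, 3 at an unadjusted p under 0.05 and a median log2 difference of 3.43. The 6 pachytene markers summed to 2087 to 3291 and 3033 to 3509 CPM, with 1 called higher. The 6 Leydig cell markers summed to 260 to 376 CPM in WT and 277 to 683 CPM in KO, with none called by edgeR, 3 at an unadjusted p under 0.05 and a median log2 difference of 0.92. The 7 Sertoli cell markers summed to 1531 to 2177 and 1399 to 1544 CPM, with none called and 1 at an unadjusted p under 0.05, and the 4 peritubular markers to 540 to 922 and 467 to 587 CPM, likewise with none and 1. Of the early meiosis, spermatogonia, macrophage and epididymis lists none was called, with 2, 1, 0 and 1 genes at an unadjusted p under 0.05, and the part of these lists in the difference of the late genes was not tested.

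Across the 24 libraries the summed level of the 5 late genes ranged 149-fold, and that of the markers 145-fold. The ratio of the sums varied far less, from 12.1% in WT_d20_1 to 52.2% in KO_d22_3. At day 20 it was 12.1%, 37.0%, 15.4% and 25.1% in WT and 38.6%, 19.2%, 46.9% and 48.6% in KO, with 3 of the 4 KO libraries above every WT library and means of 22.4% and 38.3%. At day 22 it was 39.3% to 49.5% in WT and 41.8% to 52.2% in KO, at day 24 44.3% to 49.6% and 37.1% to 46.0%, and at day 26 32.9% to 37.7% and 33.3% to 35.6%.

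**Figure D5:**
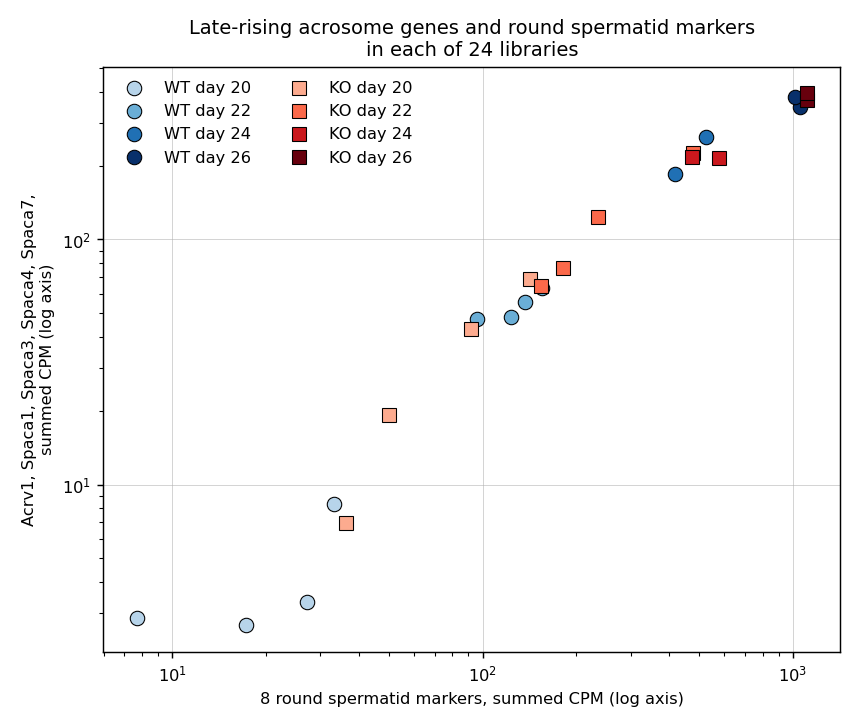
Summed CPM of *Acrv1*, *Spaca1*, *Spaca3*, *Spaca4* and *Spaca7* (y axis, logarithmic) against the summed CPM of 8 round spermatid markers (x axis, logarithmic) in each of the 24 libraries, WT as blue circles and KO as red squares, darker with age. WT and KO libraries follow the same band, with the KO libraries of day 20 between 6.997 and 68.9 CPM and the WT libraries of day 22 between 47.4 and 63.1 CPM on the y axis.

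When a score of those markers minus pachytene spermatocyte markers was added to the model as a covariate, none of the 10 genes was called at any day or over the mean of the days. At day 20 the log2 difference of *Acrv1* became 0.77 ± 0.265 (adjusted p = 0.489), that of *Spaca7* 0.63, of *Spaca3* 0.55 and of *Spaca4* 0.33, and that of *Spaca1* -0.04. The score rises with age in both genotypes. At day 20 it ran from -3.909 to -2.545 in the WT libraries and from -2.645 to 0.313 in the KO libraries. Its round spermatid markers moved with the late genes, so adding it takes out part of the KO difference by construction. Whether the state of the germ cells or the allele sets the level of the late genes was not tested.

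The steps between days were tested within KO testes as well. From day 20 to day 22, 6 of the 10 genes rose (the 5 late genes and *Acr*), against 7.37% of all genes, by 0.87 in *Acr* to 2.24 in *Spaca7* on the log2 scale. Leaving out 1 library gave 1.38 to 2.60 in *Acrv1*, 1.15 to 2.28 in *Spaca4* and 1.70 to 2.83 in *Spaca7*. The count was 0 without KO_d20_1, KO_d20_2 or KO_d22_2, and 3 without KO_d20_3. It was 8 with DESeq2 and with RLE size factors, which added *Acrbp* and *Zpbp* (adjusted p = 0.0533 and 0.0576 in the main edgeR fit). From day 22 to day 24 none was called and none had an unadjusted p under 0.05 (0.402% of all genes called), and DESeq2 called none. From day 24 to day 26 none was called while 4 had an unadjusted p under 0.05 (0.0116% of all genes called), DESeq2 called *Zpbp* (adjusted p = 0.0461), and without WT_d20_2 edgeR called *Acr* and *Acrbp*. From day 20 to day 26 all 10 rose, against 27.2% of all genes, *Spink2* among them with 0.98 ± 0.227 (adjusted p = 0.00131).

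Likeness from library to library was high within some pairs and groups of the 10 and low between others. Over the 24 libraries the 5 late genes had Pearson correlations of 0.981 to 0.995 with each other on log2 CPM, and after subtracting group means they still had 0.832 to 0.963. *Acr* and *Acrbp*, the protease and its binding partner, had 0.990 and, within groups, 0.969. *Zpbp* and *Zpbp2* had 0.950 and 0.842, and *Zpbp2* and *Spink2* 0.849 and 0.777. Between *Acrv1* and *Spink2* the value was 0.546 over all libraries and -0.09 within groups. These are descriptions: libraries share age, depth and cell makeup.

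Among the genes outside the 10 whose profile over the 24 libraries was most like the mean of the 10 were *Arrdc5* (r = 0.998), *Tex33* (0.997), *Fam71e2* (0.996) and *Gtsf1l* (0.996). *Acrv1* was nearest to *Ace3* (0.998), *Spaca1* to *Odf3* (0.996), and *Spaca3* and *Spaca7* both to *Ankrd61* (0.996 and 0.997), while *Spaca4* was nearest to *Lrrc74a* (0.995). *Acr* was nearest to *March10* (0.995) and *Acrbp* to *Ccdc60* (0.995). The other 3 genes had lower values, *Zpbp2* with *Vps26a* (0.984), *Zpbp* with *Elof1* (0.976) and *Spink2* with *1700011E24Rik* (0.959).

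A list of 15 further genes of acrosome content was set beside the 10. At day 20, 9 of the 15 were higher in KO and none lower, where 2.98% of all genes were higher, with a median log2 difference of 3.001 against 0.005 over all genes tested. *Zp3r*, a matrix protein, was at 0.393 to 1.37 CPM in WT and 0.981 to 16.8 CPM in KO (3.53 ± 0.668, adjusted p = 0.00904). *Spam1*, the hyaluronidase PH-20, was at 0.289 to 1.94 CPM in WT and 1.504 to 20.3 CPM in KO (3.75 ± 0.720, adjusted p = 0.00926). In both genes the lowest KO library lay below the highest WT library. The 6 genes of the list that were not called had log2 differences from -0.05 (*Tmprss12*) to 0.73 (*Cd46*).

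*Prss21*, a membrane-anchored serine protease, differed by 0.75 ± 0.155 (adjusted p = 0.0110). *Spaca5*, a lysozyme-like protein close to *Spaca3*, was at no more than 0.072 CPM in WT and at 0.196 to 1.42 CPM in KO (adjusted p = 0.0110), and its fold is not given because WT was at the floor. At day 22 none of the 15 was called by edgeR or by DESeq2, with 6 at an unadjusted p under 0.05 in edgeR and *Eqtn*, the equatorial segment protein equatorin, at 1.39 (adjusted p = 0.151). Over the mean of the days 5 of 15 were called higher in KO, where 3.52% of all genes were, and DESeq2 called 8. In WT 14 of 15 rose from day 20 to day 26, where 24.4% of all genes did, by 6.91 in *Zp3r* and 6.95 in *Spam1*.

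A list of 18 genes that build the vesicle (Golgi trafficking, attachment to the nucleus) was described in the same way. At day 20, 1 of the 18 was called higher in KO, where 2.98% of all genes were. This was *Actl7a*, an actin-like protein under the acrosome, with 0.347 to 1.73 CPM in WT and 1.18 to 19.5 CPM in KO (3.52 ± 0.732, adjusted p = 0.0119), and the median of the 18 was 0.11. *Dpy19l2* (0.46, adjusted p = 0.111) and *Galnt3* (0.36, adjusted p = 0.155) had an unadjusted p under 0.05 and were not called. In WT 13 of the 18 rose and 1 fell from day 20 to day 26, where 24.4% of all genes rose, with a median of 0.61. *Galnt3*, a Golgi glycosyltransferase, rose by 1.49 (adjusted p = 1.56e-07), *Dpy19l2*, which fastens the acrosome to the nuclear envelope, by 1.13 (adjusted p = 2.45e-05), and *Actl9* by 2.52 (adjusted p = 5.99e-08). The lists were chosen with results of these data known, and their counts are descriptions.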

How the data were processed

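Total RNA libraries of whole testes were made with ribosomal RNA depletion. Per the submitters' processing notes and the methods, the authors aligned read pairs to mm10 with STAR 2.7.11b and counted them in exons with HTSeq, strand-specifically, discarding pairs with several alignments. The deposited tables hold raw counts by gene symbol, 1 table per library. Pairs without a feature (45.1% to 58.5% of each table) and other unassigned tallies were left out. The methods name fewer replicates at day 20 than the labels, and all labelled libraries were used.

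The 10 acrosome genes, the lists and the tests were chosen with earlier results of these data known. TMM factors (trimmed mean of M values) set the library sizes, and the counts were fitted in edgeR 4.0.16, whose quasi-likelihood F test was used (R 4.3.3, limma 3.58.1; filterByExpr with a minimum count of 10, robust, 1 coefficient for each of 8 groups, no covariate, two-sided), checked on simulated data. All groups share 1 estimate of the spread. P-values were adjusted by Benjamini-Hochberg over 17170 genes, with calls at an adjusted p under 0.05. CPM are per library, with TMM. Intervals are at 95%. Log2 CPM for correlations used a prior count of 2. Positions are from GENCODE M21 on mm10.

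All 10 genes were named. Of each pathway list, up to 4 called genes with the smallest adjusted p were eligible, otherwise the 2 with the smallest p, together with the 5 genes most like the mean profile (1 of them is not reported here) and the 1 most like each gene. Marker lists of round and elongating spermatids, pachytene and early meiotic cells, spermatogonia, Sertoli, Leydig, peritubular and epididymal cells and macrophages were used to check cell makeup. The alternatives were DESeq2 1.42.0, relative log expression (RLE) size factors, other filters, each day alone, a replicate block, the stage score and leaving out each library.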

Additional observations from a re-analysis of the deposited data

Results flagged for a closer look

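In the WT libraries of day 20, WT_d20_4 lay far from the other 3 for *Acrv1* (2.09 CPM) and for *Spaca1* (3.82 CPM), by the gap between the highest library and its nearest neighbour relative to the range. For a single gene, chance gives such a gap in about 1 of 20 groups. All the acrosome genes were searched, in more than 1 group, so a few such gaps can arise by chance. The gaps named here are therefore not taken as unusual. WT_d20_4 also had the highest sum of round spermatid markers in its group, 33.3 CPM. *Acr* was higher in both KO libraries than in both WT libraries at day 26 (0.30 on the log2 scale), as were 27.8% of all genes. It was lower at day 24 (-0.21), as were 21.4%. The joint test of a difference between days gave an adjusted p of 0.984 for *Acr* by edgeR. *Spaca3* was higher in all 4 KO libraries than in all 4 WT libraries at day 22 (1.27), as were 3.64% of all genes. It was lower in both KO libraries at day 26 (-0.14), as were 31.1%, with an adjusted p of 0.378 in the joint test.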

How the results depend on the processing

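With RLE size factors and with a filter of 1 CPM in 2 libraries, all 15 counts of called acrosome genes stayed within 1.5 times. Fitting each day alone gave 0 at day 20 and 2 at day 26. The stage score as covariate gave 0 at day 20 and 0 over the mean of the days. Without a filter the mean of the days had 1 and WT day 24 against day 22 had 3. DESeq2 gave 1 in the joint test, 1 for the effect of day 26 against day 20, 2 for WT day 24 against day 22 and 1 for KO day 26 against day 24. Replicates with the same number deviated together in some pairs and not in others (correlations from -0.41 to 0.66, over 0.1 in 8 of 12 pairs and in 4 of 8 at days 20 and 22, with 6 of 12 best with their own number), so the numbers were not taken to pair the samples. The replicate block gave 2 for the effect of day 26 against day 20 and 1 for WT day 24 against day 22, 5 at day 20, and left the other counts within 1.5 times.

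Leaving out 1 library gave counts of 1 to 5 at day 20, 0 to 1 at day 22, 0 to 5 over the mean of the days, 0 to 2 in the joint test, 0 to 4 for the effect of day 26 against day 20, 0 to 5 for WT day 24 against day 22, 0 to 8 for KO day 22 against day 20 and 0 to 2 for KO day 26 against day 24.

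Under the stage score the sign turned at day 20 for *Acr* (-0.31), *Acrbp* (-0.059) and *Spaca1* (-0.043). At day 22 it turned for *Acrv1* (-0.44), *Acr* (-0.13), *Acrbp* (-0.042), *Spaca3* (-0.35), *Spaca4* (-0.23) and *Spaca7* (-0.32). At day 24 it turned for *Acrv1* (-0.27), *Spaca3* (-0.24) and *Spaca4* (-0.20), and at day 26 for *Spaca1* (0.17) and *Spaca3* (0.22). It turned over the mean of the days for *Acr* (-0.084) and *Spaca1* (-0.037), and for the effect of day 26 against day 20 for *Spaca1* (0.21), *Spaca4* (0.29) and *Spaca7* (0.006). The replicate block turned *Acr* for that effect (-0.042), and *Zpbp* (-0.080) and *Zpbp2* (-0.055) for KO day 24 against day 22. The cause was not tested.

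Leaving out 1 library spanned 0 at day 20 for *Acr* (-0.01 to 0.43) and *Spink2* (-0.19 to 0.17), and at day 22 for *Acr* (-0.018 to 0.30) and *Acrbp* (-0.001 to 0.25). At day 24 it did for *Acrv1* (-0.22 to 0.31), *Acrbp* (-0.19 to 0.027), *Spaca1* (-0.32 to 0.18), *Spaca3* (-0.14 to 0.28), *Spaca4* (-0.046 to 0.14), *Spaca7* (-0.59 to 0.006), *Zpbp* (-0.093 to 0.051) and *Spink2* (-0.031 to 0.13). At day 26 it did for *Acrv1* (-0.046 to 0.22), *Spaca1* (-0.22 to 0.14) and *Zpbp* (-0.024 to 0.22). It did for the effect of day 26 against day 20 in *Acr* (-0.10 to 0.34) and *Zpbp2* (-0.21 to 0.067), for WT day 26 against day 24 in *Spink2* (-0.048 to 0.16) and for KO day 24 against day 22 in *Zpbp* (-0.062 to 0.10).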

Other observations

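The summed level of the elongating spermatid markers (7 genes, protamines and transition proteins among them) was 259 and 264 CPM in the WT libraries of day 24 and 534 and 1260 CPM in the KO libraries, while *Acrv1* had a fitted difference of 0.01 on that day. None of the 7 was called at day 24 by edgeR, with 2 at an unadjusted p under 0.05 and a median log2 difference of 2.29. At day 22, 4 of the 7 were called higher in KO, where 1.26% of all genes were, with sums of 17.8 to 40.0 CPM in WT and 34.1 to 357 CPM in KO.

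The 6 pachytene spermatocyte markers were present throughout, as the early acrosome genes were. Their mean summed level was 2746 CPM in WT at day 20 and 5248 CPM at day 26. In KO it was 3237 CPM at day 20 and 6663 CPM at day 26.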
